A study of Mytilus galloprovincialis with 16 samples.

Results

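Relative mRNA abundance in the mantle of male mussels (Mytilus galloprovincialis) at stage 4 of gonad development, spawning, was set directly against that at stage 1, the early stage, on 4 dual-colour cDNA microarrays. These were the arrays titled Stage4/Stage1, replicates 1 to 4, and they are 4 of the 16 arrays of a loop in which stage 2 was also hybridised against stage 1, stage 3 against stage 2 and stage 4 against stage 3, with 4 arrays for each of the 4 pairs. On each array the mantle RNA of an individual mussel at stage 4 competed with that of an individual at stage 1. All animals were males from the Bizerta Lagoon in Tunisia, and the labels call the 4 arrays of a pair biological replicates. The stage 4 animals were sampled in March and the stage 1 animals in November, so that stage and month cannot be told apart. The labels used here do not say whether an animal was hybridised on more than 1 array. Stage 4 carried Cy5 on replicates 1 and 4 and Cy3 on replicates 2 and 3, and every ratio was turned to read stage 4 over stage 1. All 1920 clones whose name begins with Myt were measured, each as 2 spots per array. The files and tables used here do not pair these clones with genes, so that clones are given by their names. For the same reason neither the labelled tissue nor the stage that the labels give to each channel could be checked against marker genes, and every ratio of stage 4 over stage 1 rests on those labels.

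The mantle of Mytilus is both the tissue that lines the shell and the site of the gonad, which spreads through it as follicles. In males, spermatogonia multiply in these follicles and pass through meiosis and spermiogenesis, until the ripe gonad is packed with sperm that spawning then releases. At the early and the spawning stage the tissue thus stands on either side of the ripe gonad, and the direct hybridisation asks which transcripts differ between these ends of the cycle. Because the array compares equal amounts of labelled RNA from a whole tissue, fewer cells of a type and less RNA per cell cannot be told apart.

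No clone was called different between stage 4 and stage 1. Of the 1920 clones tested, 0 (0%) passed a limma adjusted p of 0.05 over all clones, and the smallest adjusted p was 0.892. An unadjusted limma p below 0.05 was found for 32 clones (1.67%), 22 higher and 10 lower in stage 4, where 96 clones would make up 5% of those tested. This unadjusted count was 17 without replicate 3, 76 without replicate 2, 71 with duplicate spots as separate values and 182 in a loop fit of all 16 arrays, each with 0 adjusted calls. The log odds (B) of limma was above 0 for 0 clones and reached -3.04 at the highest. By the same limma test on their own 4 arrays, 21 clones rose (1.09%) and 13 fell (0.677%) in stage 2 against stage 1, 222 rose (11.6%) and 227 fell (11.8%) in stage 3 against stage 2, and 254 rose (13.2%) and 269 fell (14%) in stage 4 against stage 3. These counts stand beside each other only, since their difference was not tested.

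The ratios of stage 4 over stage 1 were small on every array. Their SD over clones was 0.20, 0.22, 0.33 and 0.21 on the log2 scale on replicates 1 to 4, against 0.38 to 0.75 on the other 12 arrays, so that the ranges did not overlap. The mean was 0.24 ± 0.06 on the Stage4/Stage1 arrays and 0.51 ± 0.13 on the others (SD, n = 4 and 12), and this difference of -0.27 was larger than the spread between arrays (exact two-sided permutation test over 1820 arrangements, p = 0.00165, adjusted p = 0.0033 over 4 array measures). This test, like those of the other array measures below, takes single arrays as units, although arrays are grouped by pair of stages. It thus does not measure the spread between pairs. A ratio past 2-fold in either direction was read for 4, 20, 29 and 17 clones on replicates 1 to 4, against 49 to 230 clones on each of the other arrays.

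**Figure D1:**
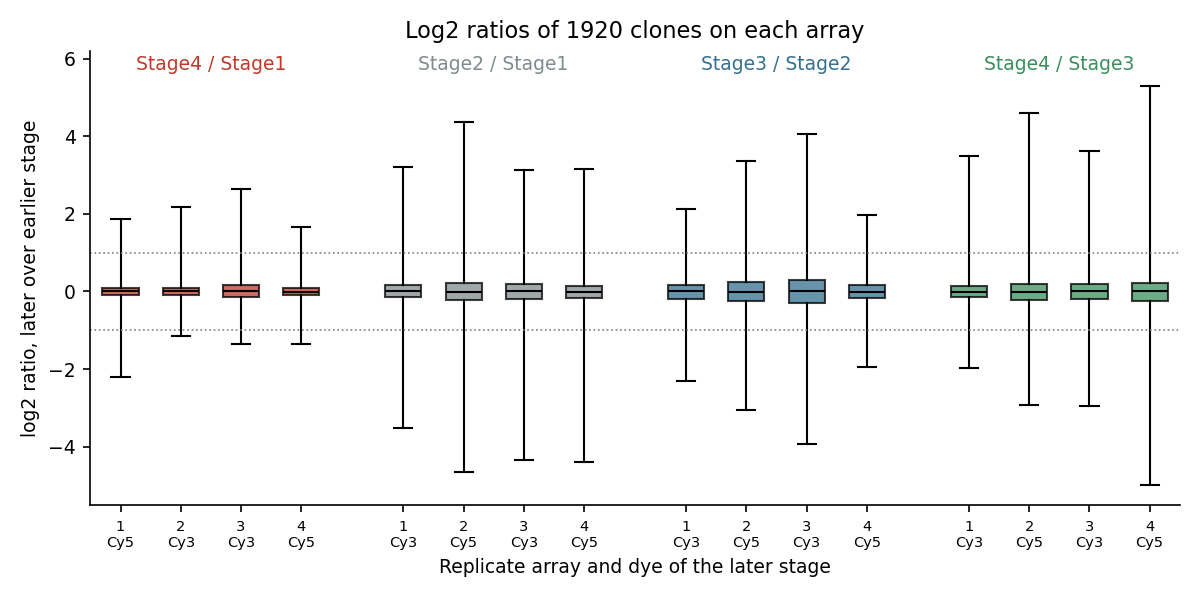
Log2 ratio of the later over the earlier stage (vertical axis) for 1920 clones on each of the 16 arrays (horizontal axis, with the dye of the later stage), where boxes span the middle 50% of clones, lines in boxes the median and whiskers the lowest and highest clone. Dotted lines mark 2-fold, and the Stage4/Stage1 arrays, at the left, have SDs of 0.20 to 0.33, against 0.38 to 0.75 on the other arrays.

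Other measures of these arrays bear on how such ratios can be read. The percentage of clones above background in both channels, that is with a foreground more than 2 background SDs over the local background in at least 1 of their 2 spots, was 43.4%, 31.4%, 36.2% and 39.9% on replicates 1 to 4, against 23.5% to 66.7% on the other arrays (exact permutation test, p = 0.473, adjusted p = 0.473). The median raw intensity averaged 296 ± 17.7 on the Stage4/Stage1 arrays and 366 ± 59.0 on the other 12 (SD; exact permutation test, p = 0.0379, adjusted p = 0.0505). Thus 516 of the 1920 clones (26.9%) were above background in both channels on all 4 arrays, and no spot was saturated. In the means over the 4 arrays, these 516 clones had an SD of 0.18, against 0.54, 0.69 and 0.68 in the same clones for stage 2 against 1, 3 against 2 and 4 against 3.

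Ratios were repeated within an array but not between arrays. Among the 516 clones, the duplicate spots of a clone correlated at 0.74, 0.75, 0.96 and 0.84 across clones on replicates 1 to 4. Between arrays the correlation across the same clones was -0.22 for replicates 1 and 2, 0.11 for 1 and 3, 0.24 for 1 and 4, 0.05 for 2 and 3, -0.30 for 2 and 4 and 0.21 for 3 and 4. Clones are not independent replicates, and the spots of an array share its RNA, so that these correlations are descriptions. In the other pairs of stages the corresponding range between arrays was 0.50 to 0.94, with duplicate spots at 0.91 to 0.99.

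**Figure D2:**
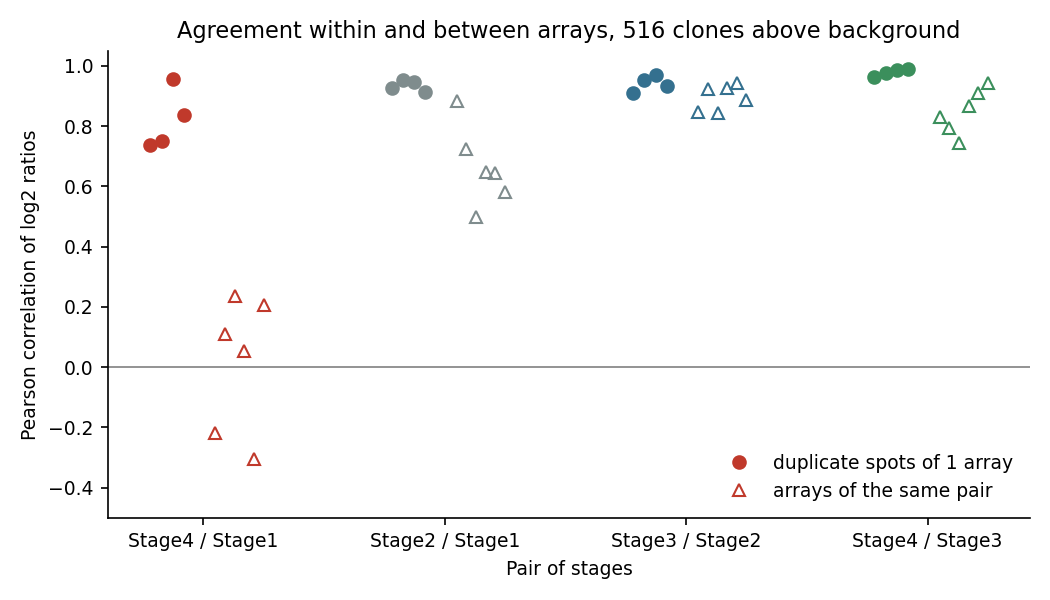
Pearson correlation of log2 ratios (vertical axis) across 516 clones above background, between the duplicate spots of an array (filled circles, 4 arrays) and between arrays of the same pair (open triangles, 6 combinations), for each pair of stages (horizontal axis). For Stage4/Stage1 the circles lie at 0.74 to 0.96 and the triangles at -0.30 to 0.24.

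Over all 1920 clones, dim ones included, duplicate spots correlated at 0.32, 0.40, 0.71 and 0.37 on replicates 1 to 4, against 0.57 to 0.94 on the other arrays (difference in means -0.34, exact permutation test, p = 0.00165, adjusted p = 0.0033). The SD of the difference between the duplicate spots, divided by 2 to give the error of their mean, was 0.13 to 0.15 on the Stage4/Stage1 arrays and 0.12 to 0.20 on the others, so that the spot errors of both sets of arrays overlapped while the SDs of their ratios did not. Between arrays the correlation over all clones ran from -0.23 to 0.19.

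The direction of the ratio was likewise not shared. Only 191 clones (9.95%) had the same sign on all 4 arrays, 95 higher and 96 lower in stage 4, and 761 clones were higher on 2 arrays and not on the other 2. Among the 516 clones above background, 39 (7.56%) kept the same sign. The corresponding numbers were 543 of 1920 clones (28.3%) for stage 2 against 1, 853 (44.4%) for stage 3 against 2 and 887 (46.2%) for stage 4 against 3.

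The 2 clones of smallest limma p on the higher side, among the 39 above background with the same sign throughout, were Myt01-006F02 and Myt01-012C11, and neither passed the test. Myt01-006F02 had log2 ratios of stage 4 over stage 1 of 0.30, 0.24, 0.12 and 0.25 on replicates 1 to 4. All 4 ratios lay above 0 and close together, which the rule of choice favours. Their mean was 0.23 ± 0.08 (SD, n = 4), or 1.17-fold, with a limma adjusted p of 0.892 (unadjusted 0.00981, 95% interval 0.08 to 0.38). It was a dim clone, with raw intensities above background of 154 to 210 in the stage 4 channel and 144 to 200 in the stage 1 channel. Before normalization its stage 4 signal was the higher on replicates 1 and 2. It was the lower on replicates 3 and 4, at 183.5 against 199.5 and 178.5 against 185. In stage 4 against stage 3 Myt01-006F02 fell, by -0.51 ± 0.19 (SD, n = 4; limma adjusted p = 0.011). Summed over the other 3 pairs of the loop, its ratio of stage 4 over stage 1 was -0.38 (limma adjusted p = 0.0992). The direct ratio was higher than this sum by 0.61, which passed the limma test of the difference (adjusted p = 0.031). For Myt01-012C11 the direct ratios were 0.22, 0.02, 1.72 and 1.31, high on replicates 3 and 4 only. Its mean was 0.82 ± 0.83 (SD, n = 4), or 1.76-fold, with a limma adjusted p of 0.892 and a 95% interval of 0.08 to 1.55.

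On the lower side, the same rule gave Myt01-012H02 and Myt01-013F06, which did not pass either. The log2 ratios of Myt01-012H02 were -0.02, -0.29, -0.78 and -0.19 on replicates 1 to 4. Replicate 3 stood lowest and replicate 1 close to 0, for a mean of -0.32 ± 0.33 (SD, n = 4; limma adjusted p = 0.892). Myt01-013F06 had ratios of -0.20, -0.01, -0.20 and -0.17. It was lower by a similar amount on 3 arrays and near 0 on replicate 2, with a mean of -0.15 ± 0.09 (SD, n = 4; limma adjusted p = 0.892). Summed over the other 3 pairs, Myt01-012H02 had -0.78 and Myt01-013F06 -0.65, and both sums passed the limma test (adjusted p = 0.0155 and 0.0388). Their direct ratios were higher than these sums by 0.46 and 0.50. These gaps did not pass the limma test of the difference (adjusted p = 0.272 and 0.214), which does not show that the estimates are equal.

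**Figure D3:**
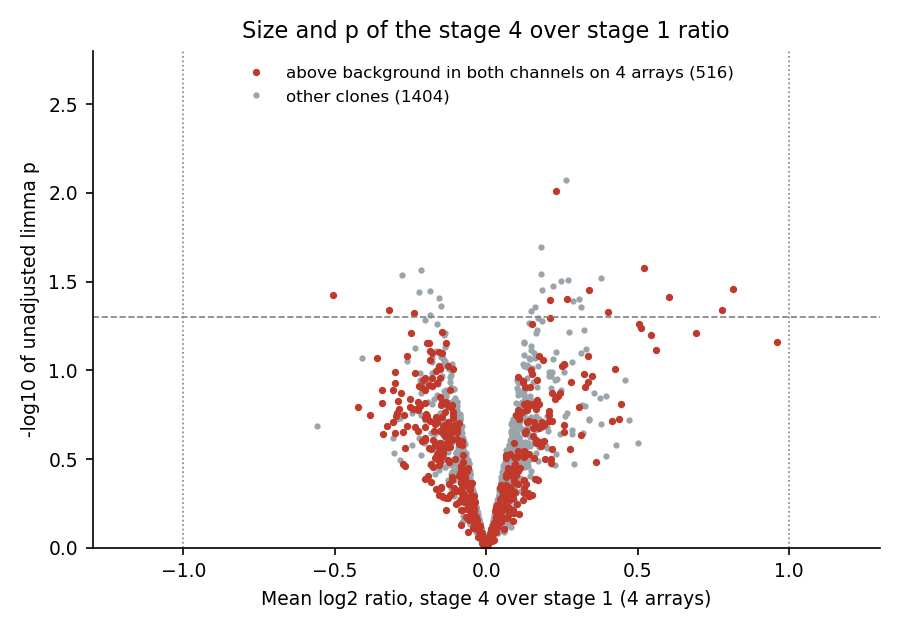
Mean log2 ratio of stage 4 over stage 1 on 4 arrays (horizontal axis) and -log10 of the unadjusted limma p (vertical axis) for 1920 clones, with the 516 clones above background in red. The dashed line marks an unadjusted p of 0.05, which 32 clones passed, and no clone lies outside the dotted lines at 2-fold.

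The replicates allowed limits to be set on the mean ratio as these 4 arrays read it. Mean log2 ratios ran from -0.56 to 0.96, and 0 clones reached 2-fold. The limma standard error of a clone's mean was 0.078 at the median (0.055 to 0.434), and 0.102 for the 516 clones above background. With it, the 95% interval of 1899 of 1920 clones (98.9%) lay wholly within 2-fold in either direction, and that of 1778 clones (92.6%) within 1.5-fold. Among the 516 clones above background these were 502 (97.3%) and 426 (82.6%). Another 734 of the 1920 clones were above background in neither channel on any of the 4 arrays. Their intervals thus set no limit on a difference in RNA. The 21 clones whose interval reached past 2-fold, 14 of them above background, remained unresolved on 4 arrays. With an offset of 0 in place of 50 in the background correction, which leaves the ratios of faint spots wider, 93.0% of the 1920 clones had an interval within 2-fold. The intervals do not cover the indirect route described below. By that route, 133 of the 225 clones whose direct and indirect ratios differed were past 2-fold.

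The same error set what could be called. A clone that stood alone among 1920 had to reach a moderated t of 11.6 at the 5.94 degrees of freedom available, which at the median standard error was a log2 ratio of 0.91 or 1.87-fold, and for the 516 clones above background 1.18 or 2.27-fold. At the lowest standard error, 0.055, the ratio needed was 0.64 or 1.56-fold, so that the limit differed from clone to clone. An exact sign permutation of 4 arrays cannot give a two-sided p below 0.05.

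Large ratios occurred on single arrays. In all, 65 clones (3.39%) were past 2-fold on at least 1 of the 4 arrays, 60 of them on 1 array, 5 on 2 arrays and 0 on 3 or 4 arrays. On all 4 arrays of their pair, 9 clones were past 2-fold for stage 2 against 1, 43 for stage 3 against 2 and 37 for stage 4 against 3. The 70 readings past 2-fold were mostly repeated by the spots, since both spots pointed the same way in 63 and were both past 2-fold in 39. The mean of the other 3 arrays had the same sign in 48 of the 70 readings, and its size was small. The 12 clones past 2-fold upward on replicate 2 had a median of 1.32 there and of -0.03 in the mean of the other arrays (2 of the 12 were above background in both channels on all 4 arrays), and the 13 clones past 2-fold downward on replicate 3 had -1.07 there and -0.02 elsewhere (10 of 13 above background). For the 16 clones past 2-fold upward on replicate 3 these medians were 1.17 and 0.07, with 12 of 16 above 0 elsewhere. On replicate 4, 16 clones were past 2-fold higher in stage 4 and 1 was lower, and the 16 had a median of 1.27 there and 0.15 elsewhere, with 16 of 16 above 0 (11 of 16 above background).

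The 5 clones past 2-fold on 2 arrays, named after their values were seen, were Myt01-007G10, Myt01-011F04, Myt01-012C11, Myt01-013C11 and Myt01-017H09. All were higher in stage 4 on replicates 3 and 4, which carried stage 4 in opposite dyes. Myt01-013C11 had log2 ratios of 0.01, 0.15, 2.65 and 1.03 on replicates 1 to 4, Myt01-007G10 had 0.25, -0.12, 1.72 and 1.27, and Myt01-017H09 had 0.12, -0.14, 1.57 and 1.23. In the main setting replicates 1 and 2 were near 0 in all of these, as in Myt01-011F04, with 0.14, -0.01, 1.09 and 1.19. These were also the 5 clones whose mean exceeded 1.5-fold, with means of 0.60 to 0.96 on the log2 scale and SDs over arrays of 0.62 to 1.21. All were above background in both channels on each of the 4 arrays, and their limma adjusted p was 0.892. The size of these ratios moved with the normalization: with median centring the means were 0.31 to 0.49, 0 of the 5 past 1.5-fold, and with loess over the whole array 0.50 to 0.67. Under these settings 2 and 4 of the 5 clones remained past 2-fold on at least 2 arrays, and 1 of the 5 without background correction. The values near 0 on replicates 1 and 2 moved as well. They ran from -0.14 to 0.25 in the main setting and from -1.06 to 0.85 with median centring. With loess over the whole array they ran from -0.48 to 0.39, and in the deposited values from -0.52 to 0.39. Myt01-013C11 averaged 0.397 without replicate 3 and 0.51 in the deposited values.

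Their duplicate spots gave nearly the same values. On replicate 3 the spots of Myt01-013C11 read 2.63 and 2.67, and on replicate 4 they read 1.04 and 1.02. Myt01-012C11 was bright, with raw intensities above background of 19290, 4145, 16010 and 20617 in the stage 4 channel and 10360, 9243, 11249 and 6808 in the stage 1 channel on replicates 1 to 4. On the other pairs of the loop, these 5 clones had mean ratios of -1.59 to -2.03 for stage 2 against 1, where none passed the limma test (adjusted p = 0.0501 to 0.0781), and 4 of them rose in stage 4 against stage 3, by 0.96 to 2.71 (limma adjusted p = 0.00226 to 0.00943). The fifth, Myt01-017H09, had 0.24 ± 0.24 there (SD, n = 4; limma adjusted p = 0.144). Summed over the other 3 pairs, its log2 ratio of stage 4 over stage 1 was -1.97 (limma adjusted p = 0.0194). Its direct mean of 0.69 differed from this sum by the limma test of the difference (adjusted p = 0.01). For Myt01-012C11, Myt01-007G10, Myt01-011F04 and Myt01-013C11 the sums were 1.054, -0.80, -0.0077 and -0.010. In these 4 clones the difference did not pass (limma adjusted p = 0.129 to 0.887).

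**Figure D4:**
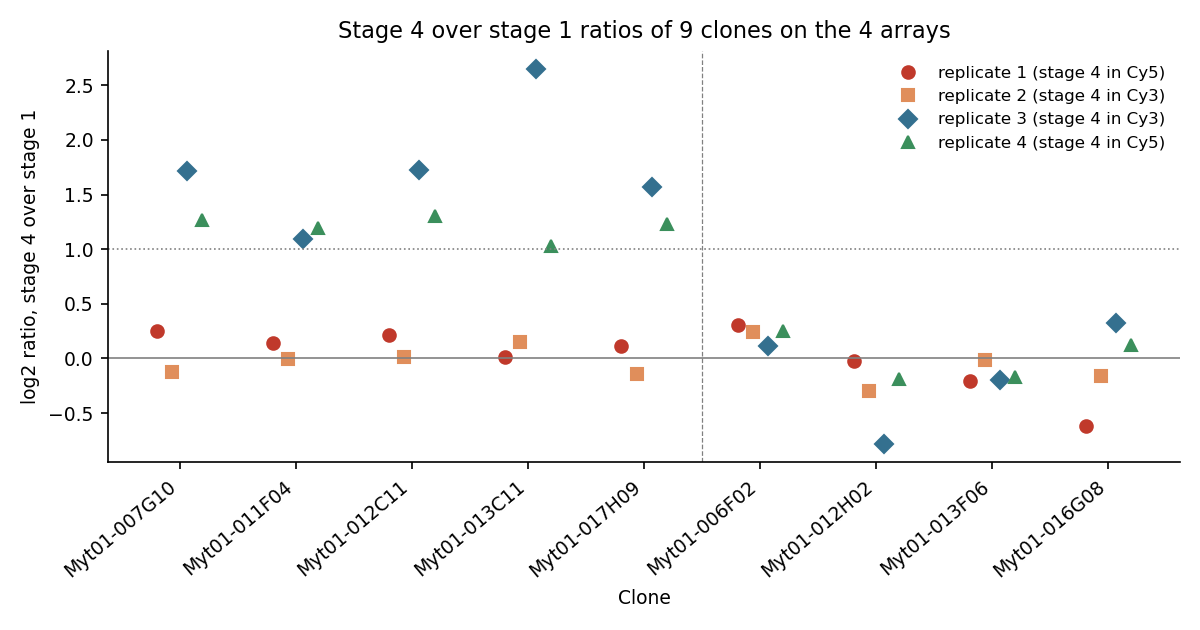
Log2 ratio of stage 4 over stage 1 (vertical axis) of single clones (horizontal axis) on the 4 arrays, with a marker for each replicate, which shows the dye that stage 4 carried. Left of the dashed line are the 5 clones past 2-fold (dotted line) on replicates 3 and 4, with replicates 1 and 2 between -0.14 and 0.25, and right of it are other named clones, none past 2-fold.

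The dyes were tested on the same arrays. With a term for the dye of stage 4, leaving 2 residual degrees of freedom, 0 of 1920 clones (0%) had a ratio that differed between the orientations by the limma adjusted p (smallest 0.664), and 127 clones (6.61%) had an unadjusted p below 0.05. The dye term had an SD of 0.13 over clones and ran from -0.65 to 0.63, while the mean ratio of stage 4 over stage 1 had an SD of 0.12. For the 5 clones high on replicates 3 and 4, the dye term ran from -0.44 to 0.06 (limma adjusted p of the dye term = 0.793 to 0.994). These clones were picked for high ratios on replicates that carry opposite dyes. That choice largely cancels the dye term, so that for them it is no test of the dye. When arrays were only centred on their median, without loess, 33 clones had an adjusted p below 0.05 for the dye.

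Detection followed neither stage alone. Above background in the stage 4 channel were 847, 613, 848 and 783 clones on replicates 1 to 4, against 997, 926, 734 and 899 in the stage 1 channel. Stage 1 gave more detected clones on replicates 1, 2 and 4 and stage 4 on replicate 3, and the Cy3 channel gave more on replicates 1, 3 and 4. Across the 4 arrays, 530 clones were above background in the stage 4 channel every time and 663 in the stage 1 channel. No clone was detected in stage 4 on all 4 arrays and in stage 1 on none (0 clones), and 1 clone showed the reverse.

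The remaining 12 arrays give the same comparison by an indirect route, as the sum of the log2 ratios of stage 2 over 1, 3 over 2 and 4 over 3. The 2 estimates share no array, though each rests on stage 1 and stage 4 animals. For the stage 3 channel of Stage3/Stage2 replicate 1, separate label fields name different sampling months, and the array was kept with the stage of its title. The direct ratio had an SD over clones of 0.12, the indirect one of 0.72. By the indirect route 339 clones (17.7%) passed a limma adjusted p of 0.05, 164 higher and 175 lower in stage 4. With median centring 180 clones passed, and without Stage3/Stage2 replicate 1 335 did. In the 164 clones the median log2 ratio was 0.80 by the indirect route and -0.00331 by the direct one, where the middle 50% of clones lay between -0.06 and 0.06. In the 175 clones the medians were -1.08 by the indirect route and -0.09 by the direct one. The direct 95% interval lay within 1.5-fold for 161 of the 164 clones and for 137 of the 175.

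The difference between the estimates was itself tested in a fit with a mean for each pair. It passed a limma adjusted p of 0.05 for 225 of 1920 clones (11.7%), for 118 with the direct ratio higher and for 107 with it lower. The count was 128 with median centring, 107 at a B above 0 and 232 without Stage3/Stage2 replicate 1. Of the 516 clones above background, 113 were among them (21.9%). The median size of the difference was 1.10 on the log2 scale, and in 133 of the 225 clones the indirect ratio was past 2-fold, while the direct ratio exceeded 0.5 on the log2 scale in 3. These sizes follow in part from the choice of clones by that difference, as direct ratios spread little over all clones (SD 0.12). The standard error of the indirect ratio was 0.19 at the median, as it adds the errors of 3 pairs.

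**Figure D5:**
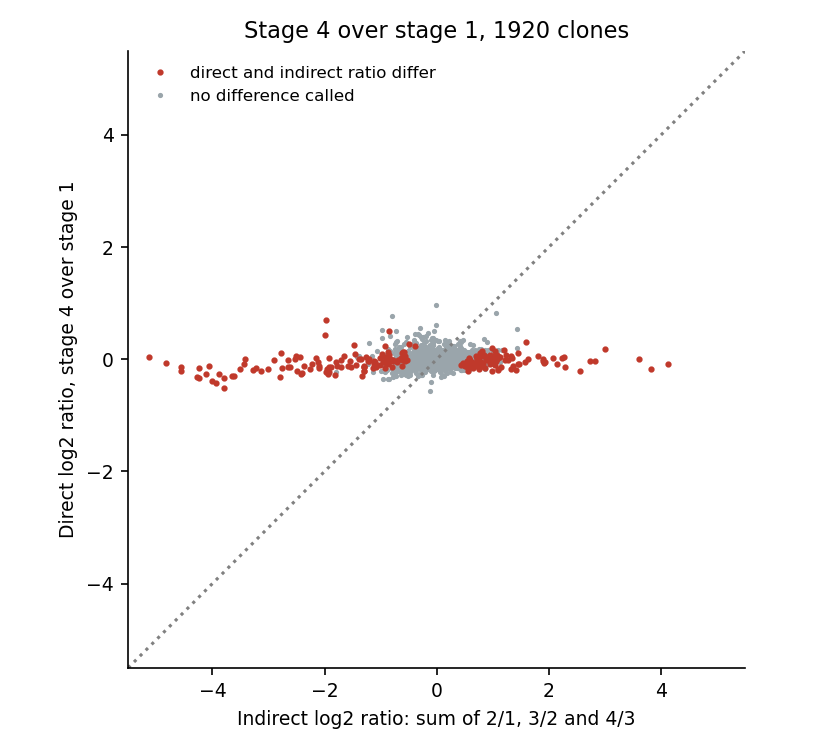
Indirect log2 ratio of stage 4 over stage 1, the sum of 3 pairs (horizontal axis), and direct log2 ratio (vertical axis) for 1920 clones, on the same scale, with the line of equality dotted. All 1920 clones stay within 1 of 0 vertically. The 225 clones in red, whose ratios differed by the limma test, spread widely along the horizontal axis. This follows in part from their choice by that difference. The lowest indirect ratio is that of Myt01-007F07, a clone not above background in either channel on the Stage3/Stage2 arrays.

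The clones farthest out by the indirect route showed how single arrays moved. For 43 clones the indirect log2 ratio was below -2, with a median of -3.14, and 24 of them were above background on the Stage4/Stage1 arrays. Their direct ratio ran from -0.51 to 0.11, and it was below 0 in 36 clones and above 0 in 7. On the single arrays the median of these 43 clones was -0.08, -0.56, -0.21 and 0.21 on replicates 1 to 4, so that replicate 2 lay lowest and replicate 4 highest, with opposite signs. The 12 clones with an indirect ratio above 2, median 2.65, had direct ratios of -0.20 to 0.18, 7 below and 5 above 0, and medians of -0.16, 0.11, 0.12 and -0.10 on the 4 arrays.

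Clones called in the other pairs were followed on the Stage4/Stage1 arrays, which share stage 1 with the Stage2/Stage1 arrays, stage 4 with the Stage4/Stage3 arrays and no stage with the Stage3/Stage2 arrays. The 222 clones that rose in stage 3 against stage 2 had a median of 0.05 for stage 4 over stage 1, with 152 above 0, and the 227 that fell had -0.06, with 64 above 0, where the median of all clones was 0.01. By array, the medians of the 222 clones were 0.06, -0.01, 0.10 and -0.01, and those of the 227 were -0.02, -0.08, -0.15 and 0.00304. The 254 clones that rose in stage 4 against stage 3 had a median of -0.01, and the 269 that fell 0.01. The 21 clones that rose and the 13 that fell in stage 2 against stage 1 had 0.04 and 0.05.

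The clone that rose most elsewhere was Myt01-016G08, with a mean log2 ratio of 3.86 ± 1.46 for stage 4 over stage 3 (SD, n = 4; limma adjusted p = 0.00438). Directly against stage 1 its ratios were -0.62, -0.16, 0.32 and 0.12 on replicates 1 to 4. They fell on both sides of 0, with a mean of -0.08 ± 0.41 (SD, n = 4; limma adjusted p = 0.925), and the direct ratio differed from the indirect one by -4.20 (limma adjusted p = 0.000469). It was above background in both channels on all 4 arrays, at raw intensities above background of 693 to 5968 in stage 4 and 618 to 5425 in stage 1. On the Stage2/Stage1 arrays the stage 1 channel gave 87 to 304 for this clone and was above background on 2 of 4.

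The clone with the lowest called ratio elsewhere was Myt01-007F07, for stage 2 over stage 1 (limma adjusted p = 0.000511). The stage 2 channel was above background on 1 of those 4 arrays, and neither channel on any Stage3/Stage2 array, so that the size of its fall and its indirect ratio are not given. Stage 1 RNA gave it raw intensities above background of 857 to 2181 on the Stage2/Stage1 arrays, above background on all 4. On the Stage4/Stage1 arrays it was not well above background in either channel on any of the 4, with 17.5 to 36.5 in stage 4 and 7.5 to 34.5 in stage 1, so that no fold is given. Across all clones, it was the only one (1 of 1920) detected in stage 1 on all 4 Stage2/Stage1 arrays and on none of the Stage4/Stage1 arrays.

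The reverse was more frequent. For 64 clones stage 1 RNA was above background on all 4 Stage4/Stage1 arrays and on none of the Stage2/Stage1 arrays, and 355 clones were detected in stage 1 on all 8 arrays. The stage 1 channel detected 38.2% to 51.9% of clones on the Stage4/Stage1 arrays and 23.9% to 39.3% on the Stage2/Stage1 arrays, and the part of this in the 64 clones was not tested. For stage 4 RNA, 525 clones were detected on all 8 arrays of Stage4/Stage1 and Stage4/Stage3. Detected on all 4 Stage4/Stage3 arrays and on none of the Stage4/Stage1 arrays were 8 clones, and 0 clones showed the reverse.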

How the data were processed

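Mantle RNA of male mussels was measured on 16 dual-colour cDNA arrays, of which the 4 Stage4/Stage1 arrays are described. The authors deposited scanner files with the raw intensity of each spot and its local background in Cy5 and Cy3, and a table of log2 ratios per spot that they had normalized; the submitters' processing notes name limma. The deposited log2 columns read as later over earlier stage: regressed on the scanner ratios, they gave slopes between 0.965 and 1.01 and a correlation of at least 0.982 on all 16 arrays. Their medians lay between -0.042 and 0.05, and they served as an alternative.

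Each array held 4560 spots, with 1920 clones in 3840 spots, 112 alignment spots and 608 blank spots. At most 0.658% of the blank spots of an array were above background in a channel. The normexp correction, at an offset of 50, took the mean foreground and the median background of each spot, ratios were normalized by print-tip loess over 16 blocks with alignment and blank spots at weight 0, and the 2 spots of a clone were averaged. The 4 arrays were fitted alone in limma 3.58.1 (R 4.3.3) with empirical Bayes moderation, with 3 residual and 2.94 prior degrees of freedom. The p-values of all 1920 clones were adjusted by the Benjamini-Hochberg method and called below 0.05. The fit was tested on simulated data. Indirect ratios came from a limma fit of all 16 arrays with a mean for each pair (12 residual degrees of freedom). Array measures were compared by exact two-sided permutation of 4 against 12 arrays. Plots were made in matplotlib 3.10.9 under Python 3.11.15. The number of arrays limits the precision, and every p-value rests on the spread between arrays alone, in which animal and array cannot be told apart.

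Named clones were, for each direction, the 2 past the threshold with the largest mean ratio and the same sign on 4 arrays, or, where too few passed, those of smallest p among clones of the same sign and above background in both channels on 4 arrays; to these were added the largest rise and fall of the other pairs. The planned lists of genes and cell type markers could not be applied, since no table used here pairs clones with genes, and no sequences are shown for this reason. Members, rules and lists were chosen with earlier results of these data known. Alternatives were another background correction, offset, normalization, scaling between arrays, the deposited log2 ratios, a filter on dim clones, other fits and leaving out each array.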

Additional observations from a re-analysis of the deposited data

Results flagged for a closer look

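Each set of 4 values from the Stage4/Stage1 arrays, for 4 array measures and 10 named clones, was searched for an array far from the other 3. Of the 14 sets, 1 held such an array. This set was the log2 ratio of Myt01-013F06, which was -0.0121 on replicate 2, while replicates 1, 3 and 4 lay between -0.203 and -0.172. Most named clones were picked by their values on these same arrays, so that no chance rate is set beside the count.

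The direct and the indirect estimate of stage 4 over stage 1 differed by the limma test of the difference (adjusted p below 0.05) in 225 of 1920 clones, 118 with the direct ratio higher and 107 with it lower.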

How the results depend on the processing

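Under no background correction, offset 0, loess over the whole array, median centring, scaling between arrays, the deposited values and a fit of the 516 clones above background, 0 clones differed between stage 4 and stage 1 by limma's adjusted p, with 27, 55, 38, 58, 36, 41 and 11 clones at an unadjusted p below 0.05. Adjusted calls were also 0 to 0 without each array in turn, and 0 with a mean for each pair over 16 arrays, the loop, a dye term, duplicate spots as separate values and B above 0; taken unadjusted, 32 clones passed. With the replicate block over 16 arrays 0 clones differed directly and 251 differed between direct and indirect ratio. Residuals of same-numbered arrays correlated at -0.24 to 0.324, and an array of this pair correlated best with its own number in 3 of 12 combinations. The mean correlation with the same number was -0.088, -0.092, 0.103 and 0.215 for replicates 1 to 4. With other numbers it was 0.031, 0.030, -0.035 and -0.071. These correlations cannot decide whether the replicate numbers mark shared animals.

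Calls for the dye term were 33 with median centring, and 0 to 0 without each array. The count of clones differing between direct and indirect ratio was 128 with median centring, 132 of 516 among clones above background and 107 with B above 0, and 177 to 242 without each of the 16 arrays. For calls by the indirect route alone, a result added with its alternatives after seeing the data, as was leaving out the arrays of other pairs, these were 180, 193 and, without each array, 272 to 352. The SD of the mean ratio was 0.217 with offset 0 and 0.114 to 0.157 without each array. The share of clones with an interval within 2-fold was 93.0% with offset 0 and 97.4% to 98.3% without each array. The mean of Myt01-016G08 ran from -0.2189 to 0.0952 without each array and was above 0 without replicate 1. Of 109 values of named clones under alternatives, the other 108 kept direction and side of the threshold. Part of this was fixed in advance, since leaving out an array cannot turn the mean of a clone with the same sign throughout. No named clone came near the threshold in any setting, so that the count does not measure how stable the ratios are. Clones past 2-fold on at least 2 of the 4 arrays, an alternative added after seeing the data, numbered 1 without background correction, 39 with offset 0, 8 with loess over the whole array, 17 with median centring, 16 with scaling between arrays and 9 in the deposited values, against 5. The causes were not tested. Faint signal limits the ratios of the 1404 clones not above background throughout.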

Other observations

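The clone names refer to 20 plates of 96 clones. The plate medians of the stage 4 over stage 1 log2 ratio lay between -0.02 and 0.04, and a plate held from 0 to 46 clones above background in both channels on all 4 arrays.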
